A study of Arabidopsis thaliana with 3 samples.

Results

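The transcripts of 7 genes for RNA-binding proteins were examined in Arabidopsis thaliana, the model plant of the mustard family. They are the glycine-rich protein genes GRP7 (AT2G21660) and GRP8 (AT4G39260, named CCR1 in RefSeq), the poly(A)-binding protein genes PAB2 (AT4G34110), PAB4 (AT2G23350) and PAB8 (AT1G49760), and their relatives RBP47B (AT3G19130) and RBP45B (AT1G11650). The genes were chosen by name, with earlier results of these data known, and all 7 were found among 15198 genes with listed sites. They held 100 of the 120269 listed sites. The samples were 3 biological replicates of Col-0 seedlings, grown on plates for 7 days (22 °C, days of 16 h light), which form a single group without a treatment or a mutant. Polyadenylated RNA was analysed by CAM-seq, in which a chemical reaction turns unmethylated adenosine into inosine, read as G, whereas N6-methyladenosine (m6A) is still read as A. The level of a site is the share of reads that kept A at that position, in percent.

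m6A is placed on plant mRNA by a methyltransferase complex that includes MTA and is read by proteins with a YTH domain, and it is concentrated in 3′ untranslated regions (UTRs). GRP7 and GRP8 are small proteins with an RNA recognition motif and a glycine-rich tail. They are under the control of the circadian clock and the cold, and each limits its own transcript and that of the other by alternative splicing. Poly(A)-binding proteins cover the tail of mRNAs and act in translation and mRNA stability. RBP45 and RBP47 proteins belong to the same wider group of RNA-recognition-motif proteins, and RBP47B is used as a marker of stress granules.

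The deposited values give 1 depth and 1 count of unconverted reads per site and name no sample. They were read here as the replicates together, which no source states. Wilson 95% intervals are given for single levels, and they cover counting error only. No spread between plants was measured, and no test between samples was possible. Sites were listed in the deposited table only at a depth of at least 20 reads and a binomial p-value under 0.001, so the lowest level that could be listed fell with depth. Of the organ markers examined, the shoot genes RBCS1A and CAB1 and the root gene PYK10 had 19, 12 and 8 listed sites, and the root gene TIP2;3 had none. Depth at the 100 sites ran from 28 to 6680 reads with a median of 718, against a median of 107 over the whole table. In whole seedlings, fewer cells that express a gene and less RNA per cell cannot be told apart from such depths.

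The contexts below show the highest site of each gene, since the results turn on how far these sites differ. Each is a stretch of 21 bases of the transcript strand from the deposited table, written with T for U, and the capitals mark the site with the base before and after it. Coordinates are those of TAIR10.
GRP7, coding sequence, chr2:9265790-9265810, minus strand: tgagggaatGAAcggacaaga
GRP8, 3′ UTR, chr4:18274046-18274066, minus strand: ttttgatgaAACagtttcgtt
PAB2, 3′ UTR, chr4:16340035-16340055, plus strand: caaaggaaaAACctatctgct
PAB4, 3′ UTR, chr2:9946131-9946151, plus strand: gctgttttaGACtttttttgc
PAB8, 3′ UTR, chr1:18419823-18419843, plus strand: agaatcagaAACagagttgtt
RBP47B, 3′ UTR, chr3:6611237-6611257, minus strand: tttgtctcaGACtaatataaa
RBP45B, 3′ UTR, chr1:3918030-3918050, plus strand: attttcccaAACacagtttat
The GRP8 and PAB8 sites share an unbroken run of 7 bases around the adenosine and were at 6.59% and 93.8%.

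The first question was how the 7 transcripts divide by level. GRP7 and GRP8 stayed below 10% at all of their 16 listed sites, whereas PAB2, PAB4, PAB8, RBP47B and RBP45B each had at least 4 sites above 50%. In 5 of the 7 genes, at least 1 site was above 50%. Over the whole table this held for 10179 of 15198 genes (67.0%), so nothing is read from the count of 5 in itself. That share was not matched for the number of sites, which ran from 7 to 19 in the 7 genes. Of the 15198 genes, 10293 had at least 5 sites. Of the 100 sites, 31 were above 50%, against 24.2% of all listed sites. The mean over the 100 sites was 32.3% ± 31.7 (SD over sites), close to the mean of 31.9% over the table, and their median was 17.1% against 21.8%.

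**Figure D1:**
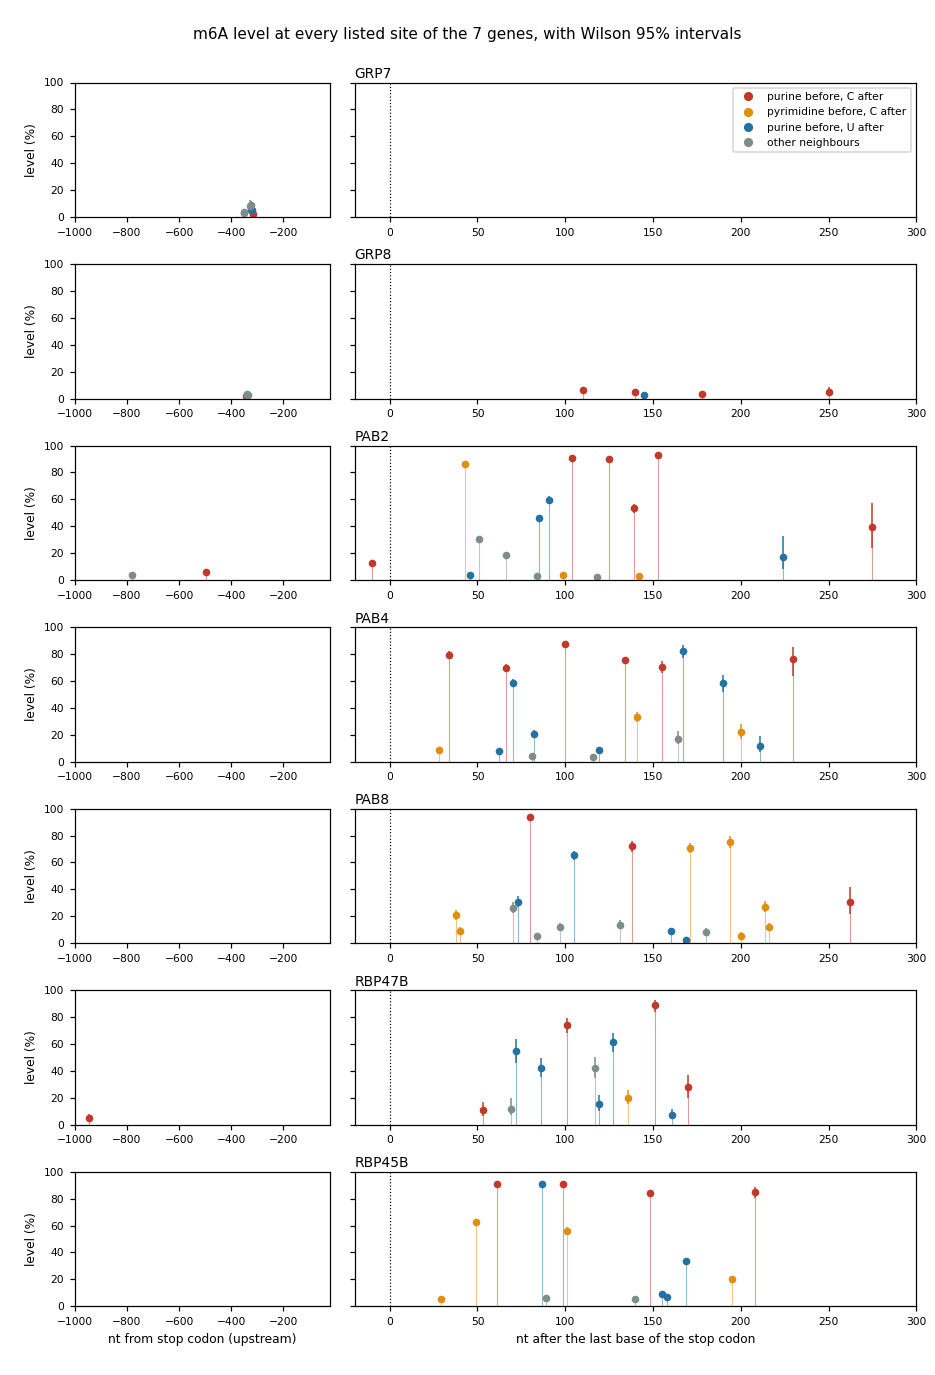
m6A level (%, vertical axis) at each listed site against its distance from the stop codon in transcript bases (horizontal axis; the left panels show the coding sequence further upstream on a smaller scale), 1 row per gene. Points are levels, bars are Wilson 95% intervals, and colours give the neighbouring bases; the listed sites of GRP7 and GRP8 are all below 10%, GRP7 has none in the 3′ UTR, and the other 5 genes have sites above 85% in the 3′ UTR.

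GRP7 had 7 listed sites, and none of them lay in the 3′ UTR. They lay in exon 2 of 2, in the coding sequence, between positions 9265795 and 9265829 of chromosome 2 on the minus strand at −352 to −318 nt, counted from the last base of the stop codon. Only 25 of 10241 genes with at least 5 placed sites had every site in the coding sequence (0.244%). The highest GRP7 level was 8.86% (Wilson 95% interval 6.55 to 11.9%) over 440 reads at a GAA motif, where the middle A is the site. The deepest site, a GAC motif in the context gaatgaacgGACaagatctcg, was at 2.32% (1.72 to 3.12%) over 1812 reads. The lowest listable level at that depth was 1.88%, so this site lay near the threshold. In all, 4 of the 7 sites were below double the lowest listable level at their depth. The mean was 5.14% ± 2.59 (SD over 7 sites). Sites in the coding sequence were low across the table too: with at least 100 and under 1000 reads, 69.9% of 3534 such sites were under 10%.

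The GRP7 sites were tightly spaced and their depths differed. Within 9 nt, between positions 9265795 and 9265804, the 5 listed adenosines had 1812, 697, 440, 216 and 198 reads in the order from 3′ to 5′. Their levels in the same order were 2.32%, 5.16%, 8.86%, 5.56% and 8.08%. The deepest of these sites had the lowest level. At 198 and 216 reads the lowest listable levels were 4.04% and 4.17%, so the 2 shallowest sites could not have been listed at 2.32%. The listing threshold thus sets part of this order. The nearest exon junction was 64 to 98 nt away from the 7 sites. The part that read filtering or mapping has in these depths was not tested.

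GRP8 had 9 listed sites, 4 in the coding sequence and 5 in the 3′ UTR, all in exon 2 of 2 of the longest coding transcript. In the UTR, an AAC site 110 nt after the stop codon was at 6.59% (6.02 to 7.21%) over 6680 reads, the deepest of the 100 sites. AAC sites at 140, 178 and 250 nt were at 4.54% (3.97 to 5.18%), 3.54% (2.92 to 4.29%) and 5.19% (3.00 to 8.86%), and an AAU site at 145 nt was at 2.33% (1.91 to 2.85%). The sites at 178 and 250 nt lie beyond the annotated end of 1 of the 4 coding transcripts. Of all AAC sites in the table, 94.3% were at or above the highest GRP8 value. Depth lowers the listing threshold, so deep sites are the fairer background: of 1449 AAC sites in 3′ UTRs with at least 1000 reads, 407 (28.1%) were under 10%. The 3 GRP8 sites of this kind were all under 10%.

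The coding sites of GRP8 lay between positions 18274503 and 18274509 of chromosome 4, with levels from 2.07% to 3.56% over 756 to 1160 reads. Of the coding-sequence sites in the table, 92.3% were under 10% with at least 1000 reads, the depth of 1 of these 4 sites, and 69.9% with at least 100 and under 1000 reads, the depth of the other 3. The mean over the 9 sites was 3.67% ± 1.52 (SD over sites), and 6 of them were below double the lowest listable level at their depth.

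The coding sites of GRP8 aligned with positions 9265829 to 9265835 of GRP7, at the 5′ end of the stretch listed there. In a global alignment of the 2 coding sequences, 402 of 500 aligned positions were identical (80.4%). An AAA motif was listed in both genes, in aaggatgagAAAgccatgaag of GRP7 and aaggacgagAAAgccatgagg of GRP8. It was at 3.37% (2.28 to 4.97%) over 712 reads in GRP7 and at 2.78% (1.82 to 4.21%) over 756 reads in GRP8. The difference of 0.593 points had a Newcombe 95% interval from −1.21 to 2.45 points, so the genes did not differ there beyond counting error. The other 9 coding sites were listed in 1 gene only, although 5 of these 9 had the same 3-letter motif in both. All 100 contexts (31 bases each) occurred once in the genome when A was replaced by G in both, as the conversion does.

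The UTRs were less alike, with 216 of 306 aligned positions identical (70.6%). Each of the 5 UTR sites of GRP8 was aligned with an adenosine of GRP7, and none of these GRP7 adenosines was listed. The 3-letter motif was the same at 3 of them, and the 5-letter motif at 0. Over stretches of 21 bases around the adenosine, 10 to 15 were identical in the 5 pairs. The pair at the highest GRP8 site, with 14 identical, is shown with the GRP7 stretch read from the RefSeq genome (TAIR10.1).
GRP7, chr2:9265352-9265372, minus strand, not listed: atttgatgtAACagttcgtga
GRP8, chr4:18274046-18274066, minus strand, 6.59%: ttttgatgaAACagtttcgtt
The GRP7 3′ UTR of 393 nt held 6 RAC adenosines, 16 YAC and 24 RAU, where R is A or G and Y is C or U. None of them was listed. No depth was at hand for adenosines outside the list, so no upper limit can be given for them.

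PAB2 had 19 sites, of which 16 lay in the 3′ UTR and 3 in the coding sequence. Its levels spanned nearly the whole scale, from 2.47% to 93.2%, with a mean of 34.9% ± 34.4 (SD over sites). The first high site downstream of the stop codon was a UAC motif at 43 nt, in the context tctctcccaTACaattggagt at position 16339935 of chromosome 4. It was at 86.5% (85.3 to 87.6%) over 3575 reads, and 3.03% of the UAC sites in the table were as high or higher. AAC sites at 104, 125 and 153 nt were higher still, with 90.7% (89.0 to 92.2%), 90.3% (88.6 to 91.7%) and 93.2% (90.3 to 95.3%). Among them, another AAC site at 139 nt was only at 53.4% (50.2 to 56.6%). The deepest PAB2 site, an AAU motif over 3580 reads, was at 3.41% (2.86 to 4.05%).

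The coding sites of PAB2 were low. A GAA site in exon 4 and a GAC site in exon 7 were at 3.40% (2.61 to 4.42%) and 5.74% (4.57 to 7.19%), and an AAC site at −10 nt was at 12.8% (11.4 to 14.2%). Their depths were 1559, 1220 and 2243 reads. Toward the 3′ end depth fell to 28 reads at 275 nt, where the interval of a GAC site at 39.3% ran from 23.6 to 57.6%.

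PAB4 had 19 sites, all in the 3′ UTR, 28 to 230 nt after the stop codon. Its mean was 41.8% ± 31.9 (SD over sites), and 9 sites were above 50%. The 5 GAC sites and the single AAC site were all high, from 69.8% to 87.2%. Of the GAC sites, 3 shared the 5-letter motif UGACU, whose mean over 2391 sites of the table was 44.5%. They are shown because they repeat along 1 UTR with like levels.
PAB4 at 34 nt, chr2:9946065-9946085, plus strand: ttttactttGACtctcttcct
PAB4 at 134 nt, chr2:9946165-9946185, plus strand: ttctgttttGACttcttactt
PAB4 at 155 nt, chr2:9946186-9946206, plus strand: ttttgggttGACttaaaaaag
Their levels were 79.6% (77.1 to 81.9%) over 1118 reads, 75.3% (72.3 to 78.0%) over 870 reads and 70.6% (65.8 to 74.9%) over 384 reads. The intervals of the outer pair did not overlap, so the order was larger than counting error there. A GAU site at 167 nt reached 82.6% (77.2 to 86.9%) over 235 reads, and only 2.70% of GAU sites in the table were at or above it. The GAU sites at 62 and 119 nt were at 7.63% (6.17 to 9.41%) and 8.85% (7.29 to 10.7%).

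PAB8 had 19 sites, all in the 3′ UTR, 38 to 262 nt after the stop codon, with a mean of 31.1% ± 29.0 (SD over sites). Its AAC site at 80 nt had the highest level of the 100 sites, 93.8% (91.1 to 95.7%) over 435 reads. A second AAC site at 138 nt was at 72.0% (68.1 to 75.6%). YAC sites were 7 of its 19. UAC sites at 171 and 194 nt were at 70.9% (67.3 to 74.2%) and 75.4% (70.6 to 79.7%), whereas UAC sites at 38 and 214 nt were at 20.6% (17.0 to 24.7%) and 27.1% (22.9 to 31.7%). All 3 CAC sites were low, from 5.57% to 11.7%. The deepest site, a GAU motif over 712 reads, was at 8.99% (7.10 to 11.3%). The 6 sites from 131 to 180 nt are absent from 1 of the 2 annotated coding transcripts, in which this stretch is spliced out.

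RBP47B, the shallowest of the 7 genes, had 13 sites with depths from 100 to 293 reads. Its 12 UTR sites lay 53 to 170 nt after the stop codon in exon 6 of 6. The mean over all sites was 35.5% ± 27.6 (SD over sites). Its GAC sites at 101 and 151 nt were at 74.4% (68.4 to 79.7%) and 88.9% (83.9 to 92.5%), and both lie in the 5-letter motif AGACU. The same 5 letters occurred at the single coding site, in exon 1 at −944 nt, within gatggatgaGACttatctcca. That site was the deepest of the gene with 293 reads and was at 4.78% (2.87 to 7.86%). AAU sites at 72 and 127 nt were at 54.8% (45.7 to 63.6%) and 61.7% (54.4 to 68.5%), and a GAG site at 117 nt was at 42.1% (34.5 to 50.1%). Of the GAG sites in the table, 5.60% were at or above that level.

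RBP45B had 14 sites, all in the 3′ UTR and in exon 6 of 6, 29 to 208 nt after the stop codon. It had the highest mean of the 7 genes, 46.2% ± 37.2 (SD over sites), and 7 sites above 50%. Its 4 AAC sites, at 61, 99, 148 and 208 nt, were at 90.6% (89.2 to 91.8%), 90.8% (89.2 to 92.3%), 84.2% (82.0 to 86.2%) and 85.1% (80.3 to 88.9%). An AAU motif at 87 nt was as high, at 90.8% (88.9 to 92.5%) over 991 reads, and only 0.633% of the AAU sites in the table were at or above it. The deepest site was a UAC motif at 49 nt, in ttgtttgcgTACtttgttatg, at 62.6% (60.7 to 64.5%) over 2430 reads. A CAC site at 101 nt was at 56.1% (53.5 to 58.6%), and 9.32% of CAC sites reached that level. The remaining CAC sites of the gene, at 29 and 195 nt, were at 5.28% (4.42 to 6.29%) and 20% (17.7 to 22.5%).

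Ordered by their highest site, the genes were PAB8, PAB2, RBP45B, RBP47B, PAB4, GRP7 and GRP8. Neighbours among the first 5 did not differ beyond counting error. Their differences ran from 0.611 points (Newcombe 95% interval −2.78 to 4.10) between PAB8 and PAB2 to 2.33 points (−0.92 to 5.01) between PAB2 and RBP45B. The step from PAB4 to GRP7 was 78.3 points (74.5 to 81.3), and GRP7 and GRP8 were 2.28 points apart (−0.117 to 5.35). The highest site is a coding GAA in GRP7 and a 3′ UTR GAC in PAB4. Over the table, the means of these motifs were 7.98% and 44.1%. Region and motif thus differ across that step, as they do between the highest sites of GRP7 and GRP8. These sites were picked as maxima, so the differences are descriptions.

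Motifs differ in level, so each gene was also set against the mean that its own motifs have over the whole table. GRP8 differed from this expectation of 31% by −27.4 points, and GRP7 from an expectation of 21.7% by −16.6 points. RBP45B was 17.3 points above its expectation of 28.9%, and PAB4 was 12.2 points above 29.6%. PAB2, PAB8 and RBP47B exceeded theirs by 6.38, 4.98 and 4.47 points. Among 10293 genes with at least 5 sites, 0.806% had a lower difference than GRP8 and 7.17% a lower one than GRP7, whereas 94% had a lower one than RBP45B. By the plain mean, 0.194% of these genes were below GRP8 and 0.641% below GRP7. These ranks hold neither depth nor region fixed. The expectation rests mostly on 3′ UTR sites, which make up 92.4% of the sites placed in a transcript of a single gene. With the expectation taken from the motif and the region together, an alternative chosen after seeing the data, the difference was −6.87 points in GRP7 (5.14% against 12%) and −24.8 points in GRP8 (3.67% against 28.5%), and the other 5 genes were 4.07 to 16.3 points higher. Among the 1507 genes with a deepest site of at least 1000 reads, 148 (9.82%) had a highest level under 10%, as GRP7 and GRP8 did, and 66.5% had a highest level above 50%, as PAB2, PAB4 and RBP45B did. The number of sites per gene was not matched in these shares.

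**Figure D2:**
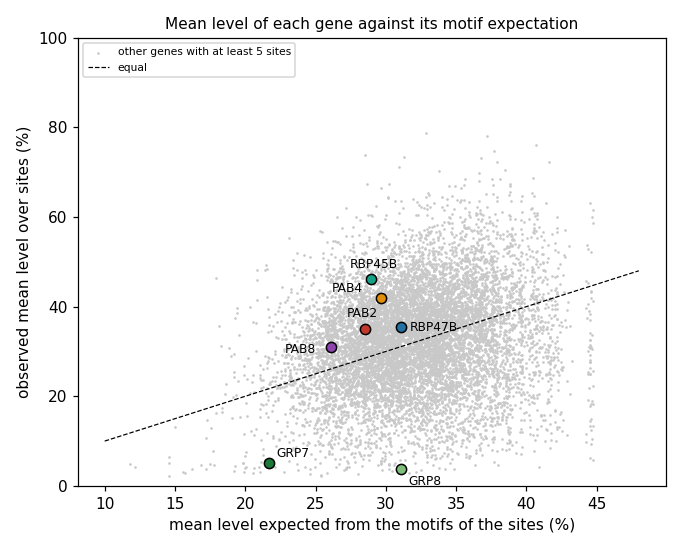
Observed mean level over the sites of a gene (%, vertical axis) against the mean expected from the motifs of these sites (%, horizontal axis), for 10293 genes with at least 5 listed sites; the dashed line marks equality. The 7 genes are labelled: GRP8 and GRP7 lie below the line, at −27.4 and −16.6 points, and the other 5 lie 4.47 to 17.3 points above it; the expectation does not take the region into account, and all GRP7 sites are coding.

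Within genes, RAC sites had the higher mean level than all other sites together in 6 of the 7 genes, against 10520 of 12153 genes in the table (86.6%). The difference was 58.0 points in RBP45B (87.7% at 4 RAC sites and 29.6% at 10 others), 50.6 points in PAB4 and 40.9 points in PAB8. It was 31.9 points in PAB2 and 9.44 points in RBP47B. In GRP8 it was 1.62 points, and in GRP7 RAC sites were lower, by a difference of −1.95 points between 2 RAC sites and 5 others. Low coding sites entered some of these means. In the 3′ UTR alone the difference was 48.4 points in PAB2, 18.6 points in RBP47B and 2.64 points in GRP8, and it was the same as before in PAB4, PAB8 and RBP45B, which had no coding sites. Over all 7 genes, the 32 RAC sites had a mean of 50.9% ± 37 (SD over sites), against 44.6% for RAC over the table. Leaving out GRP7 and GRP8, which were set apart for their low levels, the mean of the 25 other RAC sites was 63.9% ± 30.9. That choice by level raises the means of every class but YAC, which has no site in GRP7 or GRP8. With all 7 genes, the mean was 31.2% at RAU sites and 10.2% at sites in other motifs. The 24 RAU sites of the 5 remaining genes were at 33.5% ± 27.3 against 24.8%, the 18 YAC sites at 30.1% ± 27.5 against 28.2%, and the 17 sites in other motifs at 12.6% ± 11.3 against 12.4%. No test was made of these differences, since sites of a gene are not independent replicates.

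**Figure D3:**
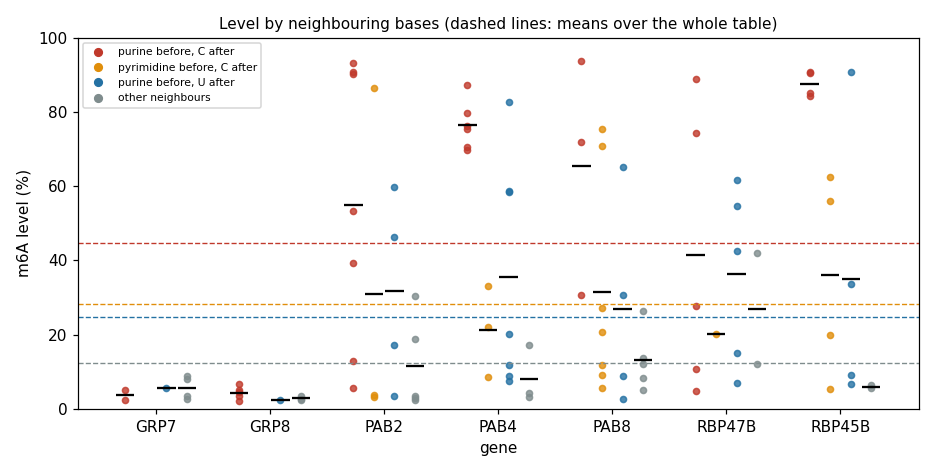
m6A level (%, vertical axis) of every listed site by gene (horizontal axis) and by the bases next to the adenosine (colours; a purine before and C after is RAC, a pyrimidine before and C after is YAC, a purine before and U after is RAU). Short black lines are means over the sites of a gene and dashed lines are means over the whole table; in PAB4 and RBP45B every RAC site lies above 69%, and in GRP7 and GRP8 no class is above 9%.

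Sites with the same 5 letters also differed between the genes. These comparisons were chosen after the levels were seen. The 5-letter motif AAACA, with a mean of 51.3% over 5250 sites, was at 93.8% in PAB8, at 90.8% in RBP45B and at 6.59% in GRP8, in 3′ UTRs and 80, 99 and 110 nt after the stop codon. PAB8 exceeded GRP8 by 87.2 points (Newcombe 95% interval 84.5 to 89.2). GAACG, with a mean of 44.3% over 551 sites, was at 85.1% in the UTR of RBP45B and at 4.54% in the UTR of GRP8, and it was at 5.16% in the coding sequence of GRP7. Among the other 5 genes, a motif of 5 letters fixed the level less tightly in some cases than in others. AAACC was at 93.2%, 90.3% and 53.4% in PAB2 and at 10.8% in RBP47B. GGAUU kept a narrower range of 42.5% to 65.3% over PAB2, PAB4, PAB8 and RBP47B.

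Adenosines close to each other differed widely in level in some pairs and little in others. Of the 22 neighbouring listed pairs within 3 nt, 15 lay in the 5 genes other than GRP7 and GRP8, and 5 of these 15 differed more than 10-fold in level. The other 7 pairs, in GRP7 and GRP8, differed only 1.16-fold to 1.72-fold, all at levels below 10%. The share of such pairs over the whole table was not computed. In PAB8, an AAU site at 169 nt was at 2.71% (1.72 to 4.25%) and a UAC site 2 nt further at 70.9%. In PAB2, the UAC site at 86.5% was followed 3 nt later by an AAU site at 3.41%, and the adjacent adenosines of a GAAU stretch were at 2.97% (2.33 to 3.79%) and 46.4% (44.3 to 48.6%). The share of reads common to neighbours was not measured, and no interval is given for these ratios.

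The share of UTR adenosines that were listed differed between motif classes, in an order that varied from gene to gene. In PAB4, 6 of 7 RAC adenosines of the 3′ UTR were listed, 3 of 3 YAC, 7 of 14 RAU and 3 of 41 others. In RBP45B, 4 of 4 RAC and 4 of 6 YAC adenosines were listed. In PAB8, YAC was ahead of RAC, with 7 of 9 against 3 of 5, and in RBP47B, RAU was ahead of YAC, with 5 of 13 against 1 of 4. In GRP8, 4 of 8 RAC adenosines were listed, 0 of 7 YAC and 1 of 19 RAU. Over the 3′ UTRs of 14367 genes with listed UTR sites, the shares were 37.7% for RAC, 25.7% for YAC, 14.5% for RAU and 1.22% for the others. For RAC, the 5 genes other than GRP7 and GRP8 were above the share over all genes, with 60.0% in PAB8 as the lowest of them, and so was GRP8 with its 4 of 8. A deeper gene can have more adenosines listed, and these shares were not matched for depth.

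Over the table, listed levels fell with depth. In 3′ UTRs the mean was 38.6% under 100 reads, 29.4% with at least 100 and under 1000 reads, and 21.9% with at least 1000. The part of the listing threshold in this fall was not tested. GRP8, with the deepest site, and RBP47B, with 100 to 293 reads and a highest level of 88.9%, differed in the same direction. Depth did not give the whole order of the 7 genes. RBP45B, with up to 2430 reads, had a mean of 46.2%, and GRP7, with up to 1812 reads, had 5.14%. Of the 27 UTR sites of PAB2, PAB4 and RBP45B with at least 1000 reads, 10 were above 50%, against 15.5% of the 7571 UTR sites of that depth in the table. The 4 UTR sites of GRP8 with at least 1000 reads were all under 7%.

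**Figure D4:**
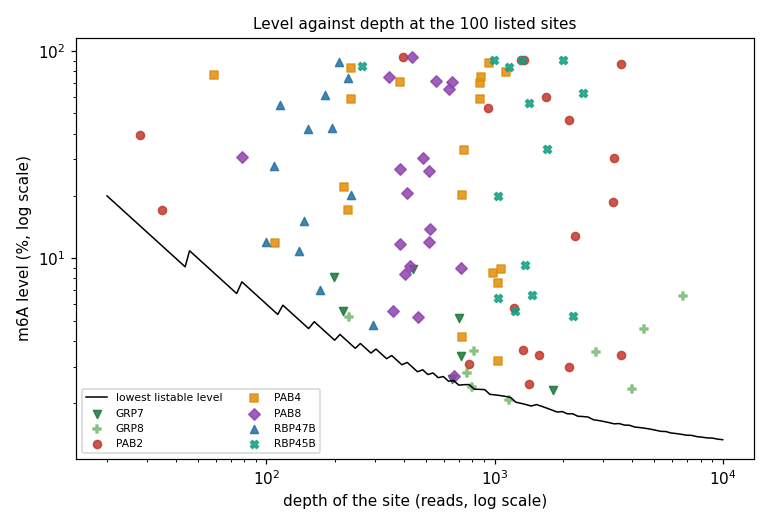
m6A level (%, vertical axis, log scale) of the 100 listed sites against their depth in reads (horizontal axis, log scale), with a marker for each gene; the black line is the lowest level that could be listed at a depth. GRP7 and GRP8 lie between 2.07% and 8.86% at depths from 198 to 6680 reads, and the other 5 genes reach above 85% at depths from 207 to 3575 reads.

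The authors removed reads with more than 3 unconverted adenosines, and reads in which a large share of the adenosines was unconverted. This filter bears on transcripts where high sites crowd together. Summed as fractions over the listed sites within any 50 nt, the levels reached 3.35 in RBP45B and 3.33 in PAB2. Such a sum adds sites measured separately over the reads that were kept, so it is not a count per molecule. The largest sum was 2.88 in PAB4, 2.36 in RBP47B and 2.33 in PAB8, and it was 0.360 in GRP7 and 0.135 in GRP8. The part of this filter in the levels was not tested.

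The relatives of the 7 genes were examined to see which of the levels they share. Of the 22 relatives examined, 17 had listed sites, and 16 of these 17 had a highest level above 50%. Over all 15198 genes with listed sites this share was 67.0%, not matched for the number of sites. The share of all annotated genes that have a listed site was not computed, so nothing is read from the 17 of 22. The 5 other poly(A)-binding protein genes, PAB1, PAB3, PAB5, PAB6 and PAB7, had no listed site, so no level can be given for them. All 9 other genes of the RBP45, RBP47 and UBP1 group had sites, with means from 30.1% to 45.1%, a range that holds RBP47B and lies just below RBP45B. All 8 other glycine-rich RNA-binding protein genes had sites as well. The 7 of them with at least 3 sites had means from 21.2% to 57.1%, all above GRP7 and GRP8.

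Among the relatives with at least 3 sites, the highest means were those of GR-RBP6 (57.1% ± 34.9, SD over 8 sites), GR-RBP5 (51.3% ± 28.9, 11 sites) and RBP47C′ (45.1% ± 33.2, 11 sites). The lowest were those of GR-RBP2 (21.2% ± 25, 11 sites), GR-RBP3 (27.9% ± 28.5, 12 sites) and GRP4 (29.2% ± 20, 10 sites). GR-RBP2 reached 3703 reads, a depth between those of GRP7 and GRP8, and its highest level was 80.3%. The sites compared differ in region: the 7 relatives had 73 sites in 3′ UTRs and 1 coding site, GRP7 had coding sites only, and GRP8 had 5 UTR sites. In the 3′ UTR alone, the mean was 4.44% in GRP8, against 21.2% to 57.1% in the 7 relatives, and no such value can be given for GRP7. This is a description of the fixed list, and no test was made.

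**Figure D5:**
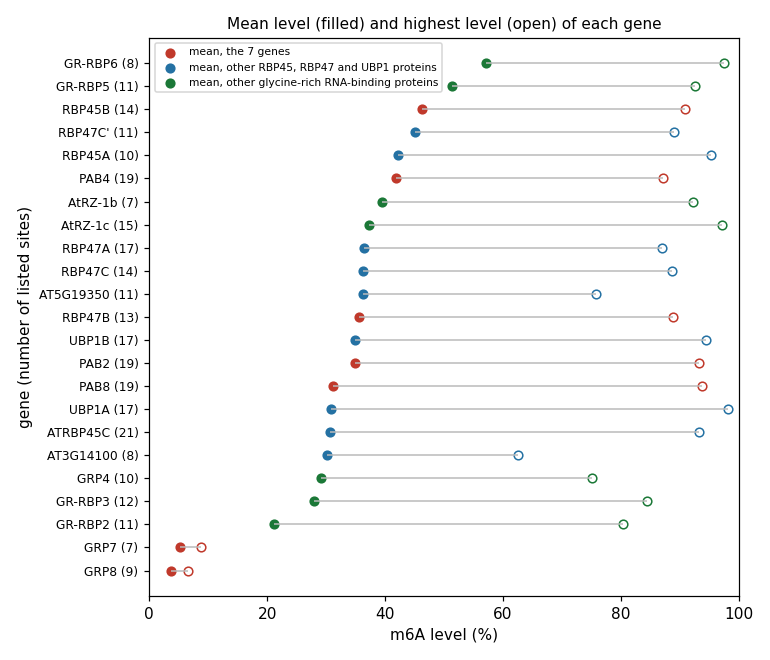
Mean level over sites (filled points) and highest level (open points) of each gene (%, horizontal axis) for the 7 genes and the 16 relatives with at least 3 listed sites (vertical axis, with the number of sites in parentheses), ordered by mean. GRP8 and GRP7 have means of 3.67% and 5.14% and highest levels of 6.59% and 8.86%, and all relatives shown have means of at least 21.2%.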

How the data were processed

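CAM-seq was applied to polyadenylated RNA of seedlings in 3 replicates. Per the labels and the methods, the authors trimmed reads with Cutadapt, extracted a random barcode, mapped to TAIR10 with hisat2-3n and removed reads with many mismatches or unconverted adenosines; tool versions are not given in the sources used here. The deposited table gives, per site, the read coverage (depth), the raw count of unconverted reads, and a p-value from the authors' binomial test. No column belongs to a single replicate. A background of 1% returned the deposited p-values to a relative difference of at most 9.56e-12.

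Levels, Wilson and Newcombe intervals were computed in Python 3.11.15 with SciPy 1.17.1, and alignments with Biopython 1.88. Regions came from the RefSeq transcript with the longest coding sequence (TAIR10.1). Of 100 contexts, 99 equalled the genome; the other lies 13 nt from an exon junction. The intervals and the motif expectation were checked on simulated data. No test between samples was possible. The members and lists were chosen with earlier results of these data known. Genome stretches of unlisted adenosines were read from TAIR10.1. Named sites were the highest and deepest of each gene and the aligned GRP7 and GRP8 pairs; other sites were chosen after their values were seen, and so was the alignment of coding sequences.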

Additional observations from a re-analysis of the deposited data

How the results depend on the processing

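With a depth of at least 100 reads, a p-value under 0.0001 or the 3′ UTR alone, the number of sites stayed within 1.5 times 100. Keeping levels of at least 20% left 48 sites, none of them in GRP7 or GRP8. The number of genes with a highest level above 50% was 5 under each of these alternatives, and the number with a higher RAC mean was 6, or 5 with levels of at least 20%. Keeping levels of at least 20% cannot remove a site above 50%, so its count of 5 was fixed beforehand. GRP7 and GRP8 had no site left there, and GRP7 had none in the 3′ UTR alone, so they could not enter those RAC counts. The mean over the sites moved from 32.3% to 33.5% (p-value under 0.0001), 59.6% (levels of at least 20%), 37.1% (UTR) and 28.5% (weighted by depth). Gene means moved as well. Weighting by depth gave 3.94% in GRP7, 4.33% in GRP8, 33.1% in PAB2, 39.7% in PAB4 and 44.3% in RBP45B. The UTR alone gave 4.44% in GRP8, 40.1% in PAB2 and 38.1% in RBP47B. A depth of at least 100 gave 39.9% in PAB4, and a p-value under 0.0001 gave 32.7% in PAB8. Levels of at least 20% gave 65.6% in PAB2, 61.1% in PAB4, 51.3% in PAB8, 51.5% in RBP47B and 68.2% in RBP45B. RAC sites alone, an alternative chosen after seeing the data, gave 3.74% in GRP7, 4.39% in GRP8, 55.0% in PAB2, 76.4% in PAB4, 65.5% in PAB8, 41.3% in RBP47B and 87.7% in RBP45B. GRP7 and GRP8 stayed below the other 5 genes under each of these that left them a site. Aligning the coding sequences in place of the UTRs, also added later, gave 1 pair listed in both genes, against 0. The alternatives differ in which sites enter or how they are weighted. The alternatives by region, added later, moved the RAC difference in PAB2, RBP47B and GRP8 and the distance of GRP7 from its expectation by over 1.5 times. No paired analysis was possible because the counts of the 1 group name no replicate, and for the same reason no replicate could be left out. Depth limits the listing: levels under 1.41% could not be listed even at 6680 reads, nor under 14.3% at the shallowest site.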

Other observations

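A stretch of the RBP45B 3′ UTR occurs in near copies, which were noticed after the levels were seen. The 9 bases before the adenosine are the same at 61 and 87 nt after the stop codon, while the base after it is C in the first and U in the second.
RBP45B at 61 nt, chr1:3917992-3918012, plus strand: tttgttatgAACttgtttctg
RBP45B at 87 nt, chr1:3918018-3918038, plus strand: cttgttatgAATattttccca
The levels were 90.6% and 90.8%. Other repeats were not searched for.

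The 5-letter motif UGAUU gave nearly the same low level wherever it was listed in these genes, 8.99% in PAB8 and 8.85% and 7.63% in PAB4, with a mean of 12% over 1768 sites of the table. UUACU was less uniform, with 75.4% in PAB8, 33.2%, 22.0% and 8.52% in PAB4, and 20.1% in RBP47B, against a mean of 23.1% over 3019 sites.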
